A study of Mus musculus with 4 samples.

Results

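The collagen chain genes are the rows of the gene table whose name is Col, a number, the letter a and a second number. This rule took 44 of 24441 rows. They fall into 11 fibrillar, 9 network, 6 beaded-filament, 2 epithelial, 9 FACIT (fibril-associated), 3 transmembrane and 2 multiplexin chains, and 2 others. The classes follow textbook knowledge of protein structure, except that the 2 epithelial chains are grouped by their role in the epidermis. One of these, Col17a1, is by structure a transmembrane collagen. The classes were not computed from the expression values, but were chosen with earlier results of these data known.

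Collagens are proteins of 3 chains wound into a triple helix, and the chains of one molecule can come from one gene or from several. Fibrillar collagens form the load-bearing fibres of the dermis and are made mainly by fibroblasts, network collagens form basement membranes and related sheets, and type VI collagen forms beaded filaments around cells. The epithelial chains, made by keratinocytes, the cells of the epidermis, and in part by fibroblasts, anchor the epidermis to the basement membrane and the dermis below. Excess of type I and type III collagen in the dermis is the hallmark of scleroderma, which repeated bleomycin (BLM) injection under the skin is used to model.

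The skin RNA came from 2 WT mice (WT 1 and WT 2) and 2 GSDMD-/- mice (KO 1 and KO 2), and the comparison asks which transcripts differ when the pore-forming protein GSDMD, the executor of pyroptosis, is missing. All 4 were female C57BL/6 mice with a labelled age of 8 weeks, and all 4 received subcutaneous BLM every other day for 28 days. Saline libraries were not analysed here, so no value below says what BLM did. The KO mice were purchased animals, made by injecting Cas9 mRNA and guide RNA into C57BL/6 fertilized eggs, so the knockout is not limited to one cell type. The RNA came from whole skin, so fewer cells of a type and less RNA per cell cannot be told apart. With 2 libraries per group the p-values measure only the spread between these libraries.

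Values are taken to be FPKM. In this unit the fragments of a gene are divided by its length and by the size of the library. Levels can thus be compared between genes. The steps between low values put 1 fragment on 1 kb of transcript at an estimated 0.0576 FPKM in WT 1, the deepest library, and at 0.0708 to 0.0784 FPKM in the other 3. Gsdmd itself had 14.05 and 18.2 FPKM in WT 1 and WT 2 and 3.53 and 2.26 FPKM in KO 1 and KO 2. The library KO 2 stood apart from the other 3: the first principal component, with 74.1% of the variance, placed it at 75.4, KO 1 at 6.17 and the WT libraries at -27.7 and -53.9. Of 40 rows on chromosome Y, 4 were above 0 in KO 2, with 1.78 FPKM in sum, and 0 in each other library, although all mice were labelled female. For this reason each result is given for KO 1 and KO 2 separately.

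The fibrillar chains of the dermis mostly had their highest value in KO 1 and their lowest in KO 2, and the main chains of basement membranes and of type VI collagen were lowest in KO 2. Both epithelial chains had higher values in both KO libraries than in both WT libraries, an order also held by 35.3% of all tested genes. The test was limma on log2(FPKM + 1), a scale on which the change of a low gene is understated, and a gene was called at a Benjamini-Hochberg adjusted p under 0.05 with an absolute log2 fold change above 1. Of the 44 genes, 23 reached 1 FPKM in at least 2 libraries and were tested. By limma 0 of the 23 were called, and the share over all 13027 tested genes was also 0%. At an unadjusted p under 0.05, 5 of the 23 had a higher value in KO mice, against 10.9% of all tested genes, and 0 had a lower one, against 6.22%. The 5 are Col17a1, Col23a1, Col4a6, Col4a5 and Col16a1. Col4a5, Col4a6 and Col28a1 reached 1 FPKM only in the KO libraries, so they entered the test through the group in which they are high. Without genes that entered through 1 group alone, 3 of 20 collagen genes (15%) had a higher value at an unadjusted p under 0.05, against 10.1% of 12609 genes, so the share is near the background. The median log2 fold change (KO minus WT) of the tested chains was -0.58, beside 0.11 over all tested genes. Of the 23, 15 had a lower log2 mean in KO mice, against 41.4% of all tested genes. Against the WT mean the median was 0.70 in KO 1 and -1.47 in KO 2, so the pooled direction was that of KO 2 alone. With no filter on low values, over all 44 genes, the median KO minus WT was -0.02.

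The order of the libraries differed between the classes. KO 1 lay above both WT libraries and KO 2 below both in 9 of 23 tested collagen genes, against 7.41% of all tested genes. This order held in 5 of 6 fibrillar, 1 of 3 beaded, 0 of 5 network and 0 of 2 epithelial chains. KO 2 was the lowest library in 16 of 23, against 33.3% of all tested genes, and KO 1 the highest in 12 of 23, against 18.9%. Both KO libraries lay above both WT libraries in 7 of 23, against a background of 35.3%, and below both in 0 of 23, against 20.5%. When KO 1 was left out, limma called 12 of the 23 genes lower and 1 higher, against 9.2% and 6.59% of all tested genes. The higher one was Col4a6, which entered the test through the KO libraries alone. In that fit the lone KO library is assumed to vary like the WT pair. When KO 2 was left out, 0 of the 23 were called, against 0.115% of all tested genes lower and 0.215% higher, and 10 of the 23 changed sign. The median log2 fold change of the 23 was 0.70 without KO 2 and -1.47 without KO 1. Its direction thus depended on which KO library was kept.

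**Figure D1:**
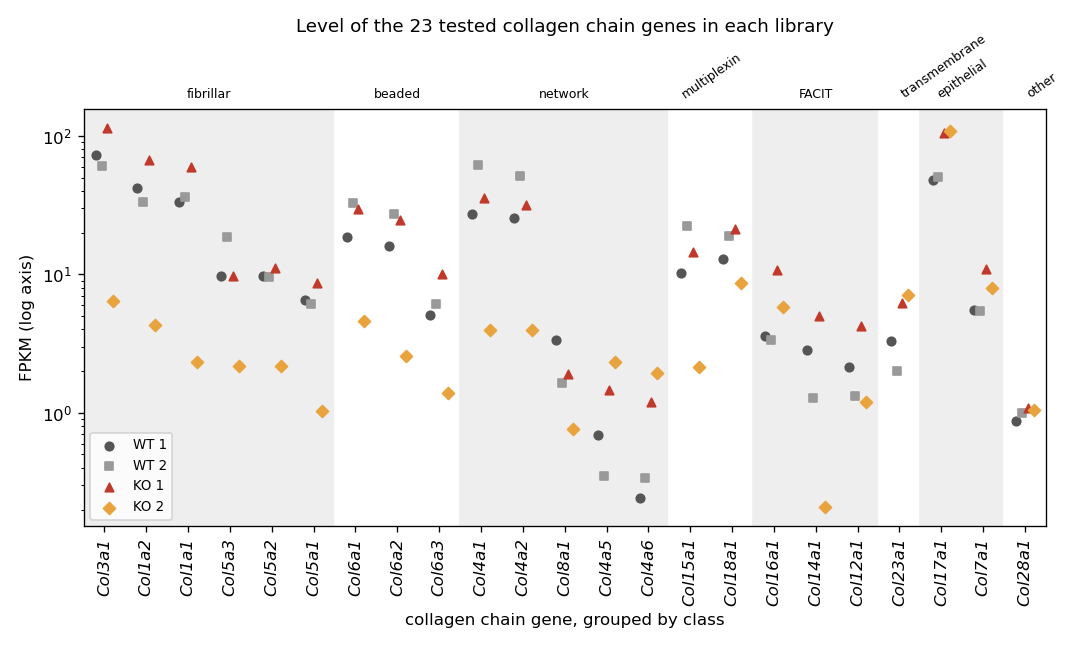
FPKM of the 23 tested collagen genes on a log axis, grouped by class along the horizontal axis. Each gene has 1 point for each of the 4 libraries. The KO 2 points of the fibrillar and beaded chains lie below the other 3 libraries, and both KO points of Col17a1 (104 and 108 FPKM) lie above both WT points (48.5 and 50.3 FPKM).

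Among the fibrillar chains, Col1a1 encodes the more abundant chain of type I collagen, the main fibre of the dermis. It had 33.2 and 36.2 FPKM in WT 1 and WT 2, 59.8 FPKM in KO 1 and 2.34 FPKM in KO 2. KO 1 was thus 1.72-fold above the WT mean and KO 2 was 14.8-fold below it, so the KO group enclosed the WT group. The group means were close on the linear scale, 34.7 ± 2.18 FPKM in WT and 31.1 ± 40.6 FPKM in KO mice (n = 2 per group, SD). On the log2 scale the difference was -1.32 (standard error 1.33, adjusted p = 0.598 by limma). It was 0.77 without KO 2 and -3.41 without KO 1 (adjusted p = 0.388 and 0.00129). The 2.34 FPKM of KO 2 stand for an estimated 177 fragments. Col1a1 shares exonic sequence with the antisense gene Gm17329, and the sources used here do not say if fragments were assigned by strand.

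Col1a2, the partner chain of type I collagen, had 42.0 and 33.1 FPKM in WT mice, 67.15 FPKM in KO 1 and 4.28 FPKM in KO 2. Its log2 fold change was -1.01 (standard error 1.18), with 0.83 without KO 2 and -2.86 without KO 1. Col3a1, whose product co-assembles with type I collagen in young and healing skin, was the highest fibrillar gene. It had 72.4 and 60.9 FPKM in WT mice, 114 FPKM in KO 1 and 6.45 FPKM in KO 2. In both genes KO 1 was the highest library and KO 2 the lowest, with KO 2 below the WT mean by 8.77-fold for Col1a2 and by 10.3-fold for Col3a1. The log2 fold change of Col3a1 was -1.20 (standard error 1.26).

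Type V collagen starts fibrils and limits their width. Col5a1 had 6.51 and 6.135 FPKM in WT mice, 8.73 FPKM in KO 1 and 1.04 FPKM in KO 2, and Col5a2 had 9.72 and 9.635 FPKM in WT mice, 11.1 FPKM in KO 1 and 2.18 FPKM in KO 2. For these chains KO 1 was only 1.38-fold and 1.14-fold above the WT mean, less than for type I and type III. Col5a3 differed in order: it had 9.67 and 18.7 FPKM in WT mice, 9.73 FPKM in KO 1 and 2.16 FPKM in KO 2, so that KO 1 lay between the WT libraries. KO minus WT was -1.32 on the log2 scale (standard error 0.66), with an adjusted p of 0.354 by limma, and it stayed negative without KO 2 (-0.44). The median of the 6 tested fibrillar chains was -1.11, and it was 0.59 without KO 2 and -2.53 without KO 1. The other 5 fibrillar genes were low: Col27a1 reached 1.23 FPKM, and Col2a1, Col11a1, Col11a2 and Col24a1 stayed under 1 FPKM in every library. Col11a1 was listed at 0 in KO 2.

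Promoter sequence of the fibrillar pair Col1a2 and Col3a1 is shown because both genes had the same order of libraries. The bases are from RefSeq (build GRCm38.p6), on the strand of the gene and outside its annotated transcripts. Capitals mark 3 short motifs, looked for on both strands: the CCAAT box, the GC box with the letters GGGCGG and the TATA box with the letters TATAAA. Matches were taken by letters alone, at any distance from the start, and matches to different motifs may share bases. The Col1a2 stretch, chr6:4505397-4505516 on the plus strand, ends 102 bases before the start and holds GGGCGG at 205 and 188 bases and CCAAT at 109 bases before it. The Col3a1 stretch, chr1:45311418-45311537 on the plus strand, ends at the start and holds TATAAA at 117 bases before it.
Col1a2: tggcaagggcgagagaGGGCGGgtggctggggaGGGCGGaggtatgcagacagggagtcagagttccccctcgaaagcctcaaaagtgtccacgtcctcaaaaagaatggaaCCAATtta
Col3a1: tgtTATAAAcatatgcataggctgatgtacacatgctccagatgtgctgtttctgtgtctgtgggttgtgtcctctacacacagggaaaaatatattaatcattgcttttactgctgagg
None of the 3 motifs stood in both stretches. The stretches cover 221 to 102 bases before the start for Col1a2 and 120 to 1 for Col3a1. They are thus not like parts of the 2 promoters.

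Among the network chains, Col4a1 and Col4a2 encode the chains of the type IV collagen found in nearly every basement membrane, including those of blood vessels. Col4a1 had 27.1 and 62.2 FPKM in WT 1 and WT 2, 35.5 FPKM in KO 1 and 3.97 FPKM in KO 2. Col4a2 had 25.5 and 51.2 FPKM in WT mice, 31.9 FPKM in KO 1 and 3.94 FPKM in KO 2. For both genes the WT libraries differed from each other, KO 1 lay between them, and KO 2 was far below all others. Their log2 fold changes, -1.65 (standard error 1.00) and -1.54 (standard error 0.94), were the most negative among the collagen genes, and neither was called (adjusted p = 0.414 and 0.415 by limma). The genes lie head to head on chromosome 8 of mm9: Col4a1, on the minus strand, runs from 11198423 to 11312826, and Col4a2, on the plus strand, from 11312805 to 11449287. Their first exons thus overlap by 22 bases, and fragments from the overlap cannot be told apart without strand.

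In a second head-to-head pair KO 2 was the highest library. Col4a5 and Col4a6, on chromosome X with 1342 bases between them, encode chains of a type IV collagen that occurs in epithelial basement membranes such as that of the epidermis. Col4a5 had 0.693 and 0.350 FPKM in WT mice, 1.46 FPKM in KO 1 and 2.34 FPKM in KO 2. Col4a6 had 0.243 and 0.341 FPKM in WT mice, 1.19 FPKM in KO 1 and 1.95 FPKM in KO 2. In both genes the groups did not overlap, whereas KO 2 was the lowest of the 4 for Col4a1 and Col4a2. The log2 fold changes were 0.92 for Col4a5 (standard error 0.29, adjusted p = 0.254 by limma) and 0.98 for Col4a6 (standard error 0.27, adjusted p = 0.248). At an estimated 28.1 to 195 fragments per value the levels are low, and both genes passed the filter on low values through the KO libraries alone, so their tests are no support for a difference.

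The remaining network genes were also low. Col8a1, a short-chain collagen of vessel walls, had 3.34 and 1.65 FPKM in WT mice, 1.90 FPKM in KO 1 and 0.766 FPKM in KO 2, and KO minus WT was -0.58 on the log2 scale (standard error 0.39). Its partner Col8a2 was not tested, since it passed 1 FPKM in KO 2 alone, where its 2.26 FPKM was the highest value of any untested collagen gene. Col4a3, Col4a4 and Col10a1 stayed under 1 FPKM in every library. Over the 5 tested network chains the median was -0.58, but it was 0.04 with no filter on low values and -1.06 with a filter on the mean. The class holds genes of both directions, and the filter sets which of them count.

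The beaded chains Col6a1, Col6a2 and Col6a3 encode the classical 3 chains of type VI collagen. Col6a1 had 18.6 and 32.9 FPKM in WT mice, 29.6 FPKM in KO 1 and 4.64 FPKM in KO 2. Col6a2 had 16.05 and 27.2 FPKM in WT mice, 24.8 FPKM in KO 1 and 2.56 FPKM in KO 2. Col6a3, the longest of the chains, had 5.12 and 6.15 FPKM in WT mice, 10 FPKM in KO 1 and 1.40 FPKM in KO 2. In Col6a1 and Col6a2 KO 1 lay inside the WT range, whereas in Col6a3 it lay above it, and in all 3 genes KO 2 was the lowest library. The log2 fold changes were -0.97, -1.19 and -0.37 (standard errors 0.83, 0.95 and 0.73). Their median was -0.97, with 0.25 without KO 2 and -2.19 without KO 1. Col6a4, Col6a5 and Col6a6, later-described relatives of Col6a3, reached at most 0.352 FPKM.
The Col6a1 promoter stretch, chr10:76726145-76726264 on the minus strand, is shown for contrast, since it holds none of the 3 motifs. It ends 101 bases before the start, and the bases nearer the start are not shown.
Col6a1: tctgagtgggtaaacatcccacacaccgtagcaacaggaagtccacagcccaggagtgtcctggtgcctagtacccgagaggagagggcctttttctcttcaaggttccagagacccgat

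Both epithelial chains were higher in KO 1 and in KO 2 than in either WT library. This order also held in 35.3% of all tested genes and in 7 of the 23 tested collagen genes. Col17a1 encodes a transmembrane collagen of the hemidesmosome, the structure that joins basal keratinocytes to the basement membrane. It had 48.5 and 50.3 FPKM in WT 1 and WT 2, 104 FPKM in KO 1 and 108 FPKM in KO 2. KO 1 was 2.11-fold and KO 2 2.19-fold above the WT mean, and the gap between the groups was larger than the gap within either of them. The means were 49.4 ± 1.28 FPKM in WT and 106 ± 2.80 FPKM in KO mice (n = 2 per group, SD). The log2 fold change was 1.09 (standard error 0.22), with the smallest unadjusted p of the collagen genes, 0.00414, and an adjusted p of 0.248 by limma. It was 1.06 without KO 2 and 1.12 without KO 1, so it did not depend on which KO library was used. With upper-quartile or median-ratio scaling the median of both epithelial chains was 0.77 in place of 0.88.

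Col7a1 encodes the chain of the anchoring fibrils that tie the basement membrane to the dermis, and is made by keratinocytes and fibroblasts. It had 5.57 and 5.48 FPKM in WT mice, 10.95 FPKM in KO 1 and 7.99 FPKM in KO 2, and again the groups did not overlap. It differed by 0.67 on the log2 scale (standard error 0.26), with an adjusted p of 0.292 by limma.
Promoter stretches of the pair are shown because both KO libraries exceeded both WT libraries in these genes. The Col17a1 stretch, chr19:47692071-47692190 on the minus strand, ends 29 bases before the start and holds TATAAA at 140 and 91 bases before it. The Col7a1 stretch, chr9:108953466-108953585 on the plus strand, ends at the start and holds GGGCGG at 61 bases before it.
Col17a1: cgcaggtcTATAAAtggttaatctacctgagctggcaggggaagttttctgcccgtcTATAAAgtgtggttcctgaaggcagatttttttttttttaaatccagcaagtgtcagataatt
Col7a1: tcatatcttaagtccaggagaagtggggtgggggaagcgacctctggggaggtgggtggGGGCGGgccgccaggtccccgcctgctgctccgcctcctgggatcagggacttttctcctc
Over the 250 bases before each start, GGGCGG stood in 22 of 38 collagen promoters (57.9%) and in 32.7% of 32851 promoters of all genes. CCAAT stood in 34.2% of collagen promoters and 33.8% of all, and TATAAA in 13.2% and 12.4%. A promoter entry was matched for 35 of the 44 genes, some with more than 1 start, and the 9 without one were Col1a1, Col2a1, Col4a3, Col5a2, Col9a3, Col12a1, Col14a1, Col22a1 and Col26a1.

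Col15a1 and Col18a1 encode the multiplexins, collagens of basement membrane zones. Col15a1 had 10.2 and 22.2 FPKM in WT mice, 14.4 FPKM in KO 1 and 2.13 FPKM in KO 2, the same order as Col4a1. Col18a1, the source of endostatin, had 13.0 and 19.0 FPKM in WT mice, 21.2 FPKM in KO 1 and 8.71 FPKM in KO 2. KO 2 was 1.84-fold below the WT mean for Col18a1 and 7.61-fold below it for Col15a1. KO minus WT was -0.19 for Col18a1 and -1.22 for Col15a1 on the log2 scale (standard errors 0.46 and 0.82).

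Of the FACIT genes, which encode collagens that sit on the surface of fibrils, 3 were tested. Col16a1 had 3.61 and 3.36 FPKM in WT mice, 10.7 FPKM in KO 1 and 5.77 FPKM in KO 2. Both KO libraries lay above both WT libraries, and the log2 difference between them was 0.99 (standard error 0.34), at an adjusted p of 0.265 by limma. Col12a1 and Col14a1, which decorate type I fibrils, had the order of the fibrillar chains instead, with KO 1 highest (4.21 and 4.99 FPKM) and KO 2 lowest (1.19 and 0.208 FPKM). The WT libraries had 1.33 to 2.15 FPKM of Col12a1 and 1.28 to 2.86 FPKM of Col14a1. Among the transmembrane chains Col23a1 had 3.31 and 2.01 FPKM in WT mice, 6.22 FPKM in KO 1 and 7.15 FPKM in KO 2. These groups did not overlap either, and KO minus WT was 1.09 on the log2 scale (standard error 0.29), at an adjusted p of 0.248 by limma. Col28a1 differed little between libraries, from 0.875 to 1.085 FPKM. Col26a1, a collagen outside the main classes, was not tested: it had 1.16 and 0.847 FPKM in WT mice, 0.597 FPKM in KO 1 and 0.146 FPKM in KO 2, so both KO libraries lay under both WT ones. In all, 21 collagen genes were not tested, and 17 of them stayed under 1 FPKM in every library. Among these the FACIT genes Col9a1, Col9a2, Col9a3, Col19a1 and Col22a1 ranged from 0.0233 to 0.746 FPKM, and the transmembrane genes Col13a1 and Col25a1 from 0.0330 to 0.707 FPKM. The other 4 passed 1 FPKM in 1 library each: Col8a2, Col27a1 and Col26a1, given above, and Col20a1, a FACIT gene with 0.712 to 1.67 FPKM.

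**Figure D2:**
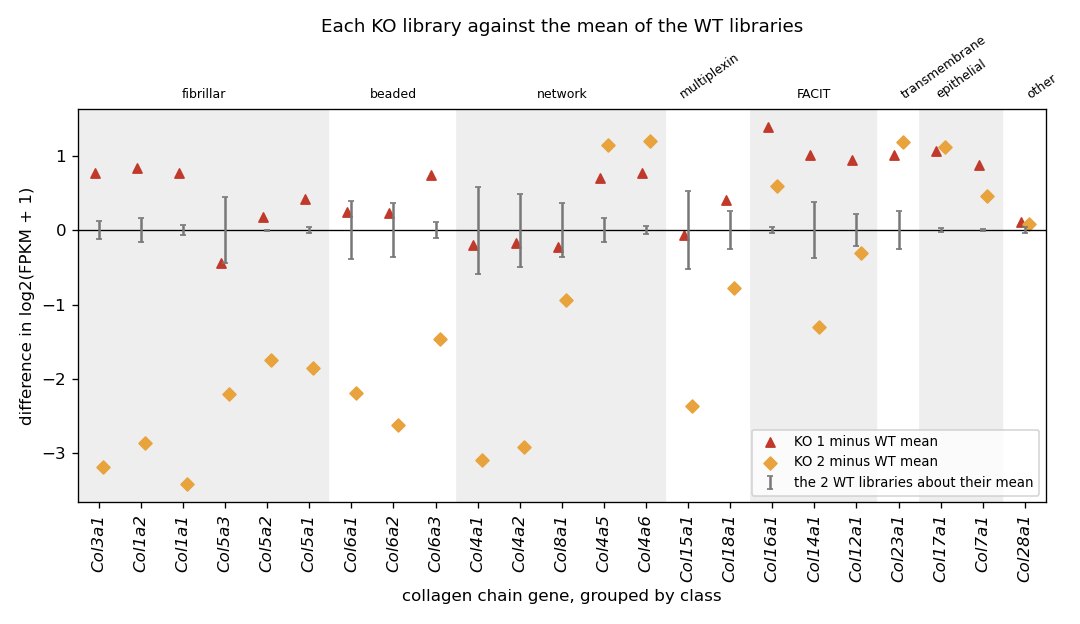
Difference of KO 1 and of KO 2 (1 point each) from the WT mean on the log2(FPKM + 1) scale for each tested collagen gene, grouped by class. Bars about 0 span the 2 WT libraries. For Col1a1 the values are 0.77 and -3.41, on opposite sides of 0, whereas for Col17a1 they are 1.06 and 1.12.

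In sum the collagen genes held 366.5 and 459 FPKM in WT 1 and WT 2, 593 FPKM in KO 1 and 189.9 FPKM in KO 2. As a share of all FPKM this was 0.0809% and 0.0993% in WT mice, 0.132% in KO 1 and 0.0421% in KO 2, so the KO libraries lay on either side of the WT libraries. An exact permutation test with 2 libraries against 2 cannot give a two-sided p below 0.333, and none was computed for this share. Fibrillar chains made up 47.8%, 36.3% and 46.1% of collagen FPKM in WT 1, WT 2 and KO 1, and network chains 15.7%, 25.3% and 12.4%. In KO 2 these classes made up 10.6% and 8.25%, and the epithelial chains, with 14.8%, 12.2% and 19.4% in the first 3, made up 61.2%.

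Ratios between chains within a library need no scaling between libraries. Col4a1 to Col4a2 was the steadiest, with FPKM ratios of 1.06 and 1.22 in WT mice, 1.11 in KO 1 and 1.01 in KO 2. For type I collagen the ratio of Col1a1 to Col1a2 was 0.790 and 1.09 in WT mice, 0.890 in KO 1 and 0.547 in KO 2. Col3a1 to Col1a1 stood at 2.18, 1.68, 1.91 and 2.75 in WT 1, WT 2, KO 1 and KO 2. KO 2 was thus the lowest library in the type I ratio and the highest in the type III ratio, while KO 1 lay inside the WT range in both. Col6a1 to Col6a2 was 1.16, 1.21 and 1.19 in WT 1, WT 2 and KO 1 and 1.82 in KO 2. Across the 7 main ratios, among them Col17a1 to Col7a1 with a 1.56-fold range, the highest library exceeded the lowest by 1.21-fold to 2.00-fold. For the level of Col1a1, KO 1 exceeded KO 2 by 25.5-fold. A pair of ratios was added after the values were seen. Col4a5 to Col4a6 was 2.85 and 1.03 in WT mice, 1.22 in KO 1 and 1.20 in KO 2, a 2.78-fold range at low levels. Col17a1 to Col1a1, a ratio between classes, was 1.46 and 1.39 in WT mice, 1.75 in KO 1 and 46.2 in KO 2.

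**Figure D3:**
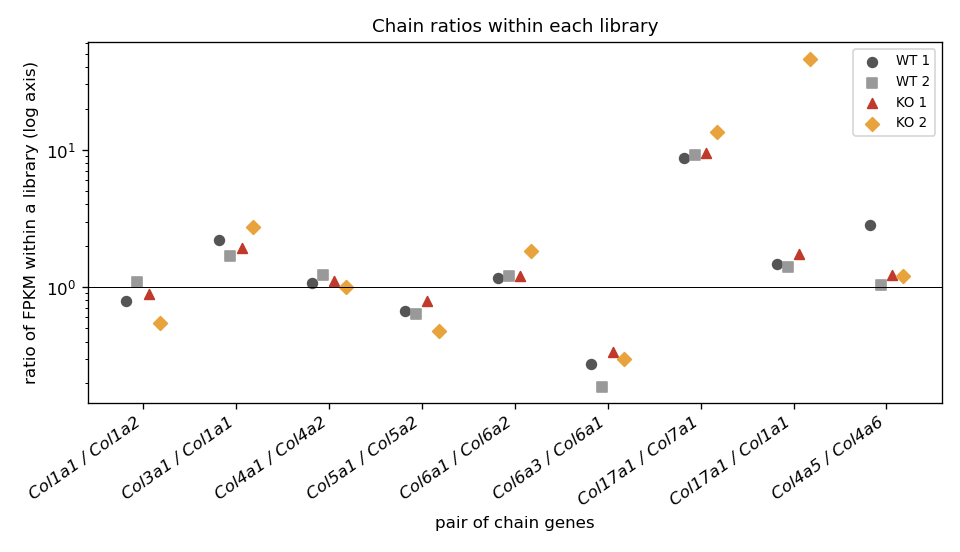
FPKM ratio of pairs of collagen chains in each of the 4 libraries on a log axis. Col4a1 to Col4a2 stays between 1.01 and 1.22, Col4a5 to Col4a6 spreads from 1.03 to 2.85, and Col17a1 to Col1a1 reaches 46.2 in KO 2 against 1.39 to 1.75 in the other libraries.

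Markers of the cells that make collagen varied with these levels. The 10 fibroblast markers summed to 267.5 and 171.5 FPKM in WT 1 and WT 2, 445 FPKM in KO 1 and 48.2 FPKM in KO 2, and 7 of 10 had KO 1 highest and KO 2 lowest, against 7.41% of all tested genes. The 7 endothelial markers summed to 98.5 and 154 FPKM in WT mice, 130.0 FPKM in KO 1 and 18.5 FPKM in KO 2. This sum had the order of Col4a1, Col4a2 and Col15a1, but 3 of the 7 genes had KO 1 highest and KO 2 lowest, the order of most fibrillar chains. Neither list had a gene at 0, and their part in the collagen values was not tested. Macrophage markers summed to 1883 and 1815 FPKM in WT mice, 753 FPKM in KO 1 and 80.9 FPKM in KO 2. Adipocyte markers had 1768 and 4837 FPKM in WT mice, 2236 FPKM in KO 1 and 242 FPKM in KO 2. Schwann cell markers (45.9 to 209 FPKM in sum) were also lowest in KO 2. Of the 5 smooth muscle markers 4 were lowest in KO 2, and their sum (666 to 1329 FPKM) is mostly Des (635 to 1217 FPKM), which skeletal muscle also expresses. The skeletal muscle markers summed to 21850 and 20500 FPKM in WT mice, 13340 FPKM in KO 1 and 13170 FPKM in KO 2. Of these 7 genes, 5 were lower in KO 1 and in KO 2 than in either WT library, against 20.5% of all tested genes. Myh1 in KO 1 (785 FPKM) and Tnnt3 in KO 2 (2840 FPKM) were above WT 2 (707.5 and 2269 FPKM). The 5 cartilage markers summed to at most 1.65 FPKM.

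On the mean log2(FPKM + 1) level, the fibrillar chains stood above the fibroblast list by 0.50 and 1.16 in WT mice, 0.21 in KO 1 and 0.03 in KO 2. This class mean joins genes that differ: Col1a1 stood at 1.27 in KO 1 and -0.13 in KO 2, against 1.18 and 1.91 in WT mice. Col5a2 stood at -1.06 in KO 1 and -0.20 in KO 2, against -0.49 and 0.10 in WT mice, so the KO libraries had the reverse order there. The epithelial chains stood above the same list by 0.26 and 0.88 in WT mice, 0.49 in KO 1 and 3.10 in KO 2.

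Markers of keratinocytes varied with the epithelial chains in part. The 8 interfollicular keratinocyte markers had a median log2 fold change of 0.81, beside 0.11 over all tested genes, and 1 of the 8 had a lower log2 mean in KO mice, against 41.4% of all. By limma 0 were called, and 4 were higher at an unadjusted p under 0.05, against 10.9% of all tested genes. Both KO libraries lay above both WT libraries in 5 of the 8, against 35.3%. In the other 3, Krt1, Krt10 and Lor, KO 1 was highest and KO 2 lowest, against 7.41% of all tested genes. Krt14, the keratin of basal cells and chosen here after its values were seen, had 1293 and 1214 FPKM in WT mice, 2689 FPKM in KO 1 and 2735 FPKM in KO 2. Krt10, a keratin of the layers above, chosen in the same way, had 745 and 364 FPKM in WT mice, 1670 FPKM in KO 1 and 266 FPKM in KO 2. For Krt14, as for Col17a1, both KO libraries lay above both WT libraries, and for Krt10 they did not. The 10 hair follicle markers summed to 8.58, 0.855 and 9.34 FPKM in WT 1, WT 2 and KO 2 and to 343 FPKM in KO 1. The hair keratins Krt25, Krt27, Krt35, Krt72 and Krt73 were at 0 in at least 1 library. The part of these cells in the Col17a1 values was not tested.

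The genes that modify, fold, trim and cross-link collagen chains are a list of 30, of which 25 were tested and 0 were called by limma. At an unadjusted p under 0.05 there were 0 of the 25, against 10.9% of all tested genes higher and 6.22% lower. Of the 25, 17 had a lower log2 mean in KO mice, against 41.4% of all tested genes, with a median log2 fold change of -0.42, beside 0.11 over all, and a range from -1.25 (Loxl2, a cross-linking oxidase) to 0.56 (P3h2, a prolyl hydroxylase). KO 2 was the lowest library in 21 of 25, against 33.3% of all tested genes. The 30 genes summed to 633 and 673 FPKM in WT mice, 700.0 FPKM in KO 1 and 487 FPKM in KO 2, a smaller range than that of the fibrillar chains (175, 166.5, 273 and 20.2 FPKM). P4hb and Ppib, enzymes of general protein folding, had 132 to 159.9 FPKM and 145.5 to 171 FPKM over the 4 libraries. Lox and Loxl2, which cross-link collagen outside the cell, had 1.78 and 0.537 FPKM in KO 2 against 7.33 to 13.9 FPKM in the other 3 libraries. Fkbp10 and Pcolce, a collagen chaperone and an enhancer of propeptide removal, had 1.58 and 3.74 FPKM in KO 2 against 9.33 to 34.7 FPKM in the other 3. Serpinh1, a chaperone that binds procollagen, had 65.2 and 90.3 FPKM in WT mice, 81.0 FPKM in KO 1 and 39.1 FPKM in KO 2, so genes specific to collagen were not all equally low in KO 2. The genes of this list named here were picked after their values were seen.

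**Figure D4:**
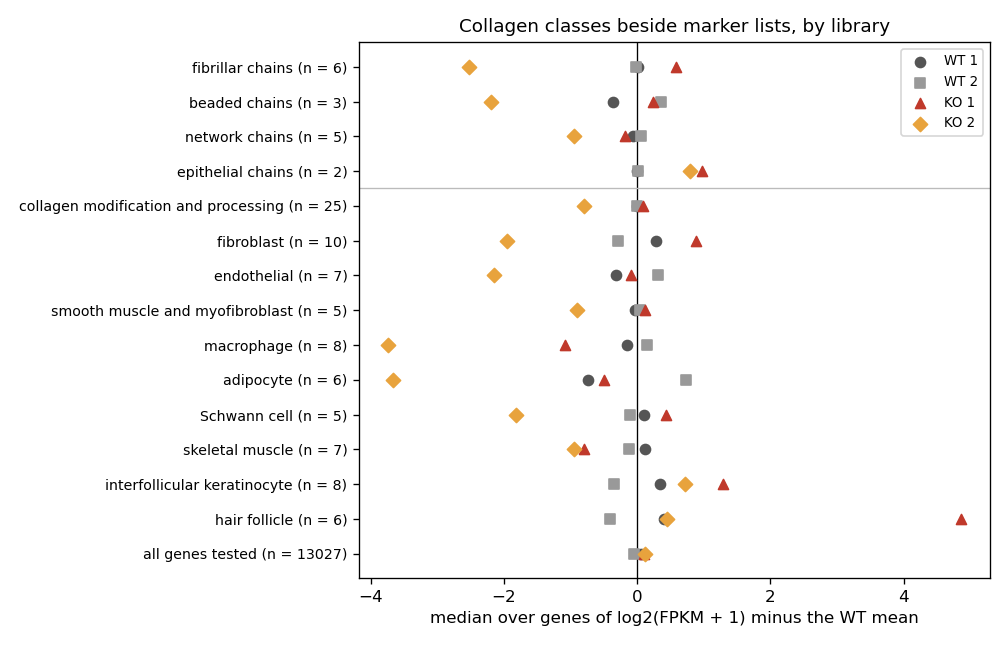
Median over the tested genes of 4 collagen classes, the collagen-modifying list, each tested marker list and all genes of log2(FPKM + 1) minus the WT mean, with 1 point for each of the 4 libraries. KO 1 and KO 2 lie on opposite sides of WT for the fibrillar chains (0.59 and -2.53) and the fibroblast list (0.88 and -1.95). They lie on the same side for the epithelial chains (0.97 and 0.79) and the keratinocyte list (1.29 and 0.72). The medians do not show single genes: 3 of the 8 keratinocyte markers had KO 1 highest and KO 2 lowest.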

How the data were processed

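Whole lesional skin RNA of 2 WT and 2 GSDMD-/- mice was analysed, grouped by the genotype and number in the labels. The submitters' processing notes name HISAT2 version 2.0.1 and StringTie version 2.0.6, with genome build mm9, and the methods name read counting and DESeq2. The deposited table is named as raw gene counts but is taken here to hold FPKM, since 99.993% of the values above 0 are not whole. The program that made them is not given in the sources used here, and no count test was run. Depth was estimated from the steps between low values, where 1 fragment on 1 kb was worth 0.0576 to 0.0784 FPKM. Such estimates are approximate, PCR copies are not independent molecules, and no interval was derived.

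A gene was kept where 2 or more libraries reached 1 FPKM, which left 13027. On log2(FPKM + 1), unscaled, limma version 3.58.1 under R version 4.3.3 fitted genotype alone with a mean-variance trend, and p-values were adjusted by Benjamini-Hochberg over the kept genes. Calls were made below 0.05 for the adjusted p and beyond 1 for the size of the log2 fold change. Tables were made with pandas version 2.3.3, and the steps were tested on simulated data.

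Members, classes and marker lists were chosen with earlier results of these data known. All 44 members enter the counts. Those with at least 10 FPKM in a library, and Col7a1, Col17a1, Col4a5 and Col4a6, have each library's value, and the others are given by range, singly or by class, or as staying under 1 FPKM, with values for some that were chosen after these were seen. Of 101 list symbols, 101 matched, 6 of them through RefSeq synonyms. Gene positions are from GENCODE vM1 on mm9, in which 43 of the 44 genes were found. Same-numbered libraries were not treated as pairs, since the deviations of WT 1 and KO 1 from their group means correlated at -0.20 and nothing states that equal numbers share a litter or batch. The alternatives were other pseudocounts, filters and scalings, no trend, a replicate block, a level relative to fibroblast markers, leaving out each library and, added after the data were seen, a crossed block. The deposited table holds no columns of the authors' own comparisons.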

Additional observations from a re-analysis of the deposited data

How the results depend on the processing

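Leaving out a KO library decided most values, and no alternative that kept all 4 libraries called a gene by limma. With each library left out in turn, between 0 and 13 collagen genes and between 0 and 2058 of all genes were called, with 13 and 2058 without KO 1 and 0 and 43 without KO 2. The median log2 fold change ran from -1.47 to 0.70 over the tested collagen genes, from -2.53 to 0.59 over fibrillar, from -0.94 to -0.18 over network and from -2.19 to 0.25 over beaded chains, and over epithelial chains from 0.79 to 0.97. Single log2 fold changes that changed sign ran from -3.41 to 0.77 for Col1a1, -2.86 to 0.83 for Col1a2, -3.18 to 0.77 for Col3a1, -1.85 to 0.41 for Col5a1, -1.75 to 0.18 for Col5a2, -2.19 to 0.25 for Col6a1, -2.62 to 0.23 for Col6a2, -1.47 to 0.73 for Col6a3, -0.31 to 0.94 for Col12a1, -1.30 to 1.01 for Col14a1 and -0.78 to 0.41 for Col18a1. Col14a1 stood at 0.24 without WT 1 and Col18a1 at 0.07 without WT 2. Of the 23 single values, 10 changed sign without KO 2 and 1 without each other library, and 0 of the 183 values under the alternatives that kept all libraries did. The network median was 0.036 with no filter on low values and -1.06 with a filter on the mean, which change the genes tested. With no filter the median was -0.02 over all collagen genes, -0.72 over fibrillar and -0.18 over beaded chains. The epithelial median was 0.77 with upper-quartile or median-ratio scaling and 1.23 relative to the fibroblast list. Relative to that list the median was -0.24 over all tested collagen genes and over network chains. It was -0.76 over fibrillar and -0.63 over beaded chains. Both scalings moved the median of all genes from 0.11 to 0.01. With the replicate number as a block, 0 genes were called (1999 at an unadjusted p under 0.05) and the collagen median stayed at -0.58, but the libraries share only a number. With the numbers crossed, 0 genes were called (3052 at an unadjusted p under 0.05). With 2 libraries per group, limma needed 1 KO library to be left out to call any gene, and genes under 1 FPKM rest on few fragments.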

Other observations

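Genes with a profile like that of Col1a1 were ranked by the Euclidean distance between log2(FPKM + 1) profiles, each centred on its mean over the 4 libraries. The 10 nearest of all tested genes were Col3a1, Plvap, Serpinf1, Dpt, Col1a2, Ackr1, Mgp, Cd248, Mfap5 and Lbp, with distances from 0.33 to 0.70. Col3a1 was thus the nearest and Col1a2 the fifth. Of the others, Dpt and Mfap5 are fibroblast matrix genes of the marker list, and Plvap and Ackr1 are known from the endothelium of small vessels. Plvap had 52.5 and 70.3 FPKM in WT mice, 103 FPKM in KO 1 and 3.33 FPKM in KO 2. With 4 libraries, of which KO 2 stands apart, such a ranking mostly orders genes by their value in KO 2, and it was given no p.

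The next collagen genes in this ranking were Col6a2 at rank 38, Col4a2 at 64 and Col4a1 at 65, and the type V chains followed at 138 for Col5a1, 222 for Col5a2 and 300.0 for Col5a3. Col17a1, Col23a1, Col4a5 and Col4a6 came last of the collagen genes, at ranks 11138, 11607, 11746 and 11796 of 13027 genes tested.

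Several collagen genes lie side by side. On chromosome 1 Col3a1 and Col5a2 are 24624 bases apart and point towards each other, and Col4a4 and Col4a3 are 71 bases apart and point away from each other. Col6a2 and Col6a1 are 85161 bases apart on chromosome 10 and run the same way. The 43 genes found in the annotation lie on 14 chromosomes, with 7 on chromosome 1 and 6 on chromosome 9.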
